A study of Mus musculus with 4 samples.

Results

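Sox9, Sox8, Wt1, Gata4, Gata6, Gata1 and Nr0b1 were followed as the transcription factors that define Sertoli cells, the somatic cells that surround and feed the germ cells inside the seminiferous tubule. They were taken by symbol from the gene annotation of the count matrices, and 7 of 7 were found among 32285 genes. The question was how far Sertoli cells in mouse testicular organoids (TOs) kept this set of factors, whether Gata1, a factor linked to Sertoli maturation, was reached, and where Wt1 was found in TO cells other than Sertoli cells. Single-cell 3' RNA-seq (10x Genomics) was available for 2 TO libraries and 2 testis libraries, all of mouse with no genetic change named. Per the study's methods, TOs were rebuilt in culture from dissociated testis cells of immature ICR mice. The series and the study's methods give TOs and testes as 28 days old, whereas the dissociation protocol in the labels names TOs of day 21. In the study, the days of TOs count culture, to which the age of the donor mice adds. The cells of TOs and testes therefore need not be of the same age after birth. The study describes the testis libraries as biological replicates and the TOs as coming from 2 independent batches. The labels do not say how many animals gave each library, and p-values measure only the spread between these libraries.

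SOX9 and its relative SOX8 are HMG-box factors that switch on and hold the testis programme, and WT1 is a zinc finger factor without which Sertoli cells lose their identity. GATA4 and GATA6 are zinc finger factors of gonadal somatic cells and activate genes such as Amh together with the nuclear receptor NR5A1, while GATA1 appears in mouse Sertoli cells only after birth and varies with the stage of the tubule. NR0B1 (DAX1) is an orphan nuclear receptor that binds NR5A1 and represses its targets. GATA4 also acts in Leydig, stromal and peritubular cells, so a Gata4 transcript alone does not name a Sertoli cell.

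Positions were taken from GENCODE vM21 (GRCm38, the assembly that mm10 names). Sox9 lies on chromosome 11 (112782224 to 112787760, plus strand), Sox8 on chromosome 17 (25565892 to 25570686, minus strand) and Wt1 on chromosome 2 (105126529 to 105173616, plus strand). Gata4 lies on chromosome 14 (63198922 to 63271692, minus strand). Gata1 (7959260 to 7978071, minus strand) and Nr0b1 (86191764 to 86195947, plus strand) are X-linked. No annotated gene overlaps Sox9, Wt1, Gata4, Gata1 or Nr0b1, whereas Sox8 shares 329 bases with the antisense gene 2810468N07Rik and Gata6 shares 504 bases with the antisense gene 1010001N08Rik. Whether counting used strand is not given in the sources used here. Annotated spans run from 4184 bases (Nr0b1), 4795 (Sox8) and 5537 (Sox9) to 18812 (Gata1), 33572 (Gata6), 47088 (Wt1) and 72771 bases (Gata4). Levels are therefore compared between libraries and cell types for 1 gene at a time, not between genes.

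Promoter windows of 250 bases before to 50 bases after the gene start were held by the RefSeq table (GRCm38.p6) for Sox8, Gata1 and Nr0b1. The windows of the X-linked pair are shown. Both genes stood at overlapping levels in TOs and testes, as did Sox8, whose window is not shown. The Nr0b1 window (chrX:86191525-86191824, plus strand) holds 1 match to AGGTCA, the core site of NR5A-type nuclear receptors, marked in capitals, whose first base lies 126 bases before the gene start. The Gata1 window (chrX:7967861-7968160, minus strand) begins from a start that lies 10161 bases downstream of the most upstream of its 3 annotated starts, and the 3' counts do not tell which start was used. It holds no match in capitals.
Nr0b1: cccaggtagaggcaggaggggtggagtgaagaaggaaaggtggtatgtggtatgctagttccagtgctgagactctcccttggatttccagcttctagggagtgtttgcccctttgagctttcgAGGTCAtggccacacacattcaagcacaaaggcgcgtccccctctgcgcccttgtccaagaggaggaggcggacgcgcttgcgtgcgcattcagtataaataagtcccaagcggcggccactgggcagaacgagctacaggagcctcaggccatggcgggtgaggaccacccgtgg
Gata1: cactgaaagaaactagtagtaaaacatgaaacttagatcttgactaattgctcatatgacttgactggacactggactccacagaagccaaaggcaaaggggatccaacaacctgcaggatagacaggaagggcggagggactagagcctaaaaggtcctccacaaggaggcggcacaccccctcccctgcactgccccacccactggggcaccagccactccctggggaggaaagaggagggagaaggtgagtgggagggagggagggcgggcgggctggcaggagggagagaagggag
The letters searched on both strands were AGATAA or AGATAG and also TGATAA or TGATAG for GATA factors, while AACAAT was searched for SOX factors and AGGTCA for nuclear receptors. Among 32851 promoter windows of this length, 29.8%, 10.7% and 16.3% held a match to the GATA, SOX and AGGTCA letters. No other match, and no overlap between motifs, was found in the 3 windows.

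After removal of doublets and low-quality cells, 8713 to 9866 cells per library were kept, and 30 to 55 cell barcodes (0.254% to 0.44% of the smaller library) were shared between any pair of libraries. Clusters were named from markers that held none of the 7 factors, and the factors were also kept out of the genes used for clustering. Sertoli-like cells numbered 1498 and 727 in TOs and 466 and 142 in testes, with 14023323, 7381308, 2572107 and 1135447 UMIs (unique transcript counts). None of the 10 naming markers, among them Cldn11, Fshr and Rhox8, was at 0 in any of the 4 sums. Their summed level was 10893 and 11453 CPM in TOs and 7669 and 7480 CPM in testes. CPM are UMI counts scaled so that the summed cells of a type or cluster in a library total 1e6. Spermatid markers summed to 0.642 and 2.30 CPM in the Sertoli-like cells of TOs and to 2360 and 5770 CPM in those of testes. Malat1, a nuclear RNA, was 6255 and 4684 CPM in the main cluster of TO Sertoli-like cells, against 4242 and 2482 CPM for testis ones. The part of either in the differences below was not tested. A TO value below is given as replicate 1 and 2, then the testis value in the same order.

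Sox9, the central factor of Sertoli fate, was higher in TOs than in testes. Its level in Sertoli-like cells was 483 and 567 CPM in TOs and 217 and 311 CPM in testes. The groups did not overlap, with means of 525 ± 59.3 and 264 ± 66.2 CPM (SD, n = 2 each). The fitted level was 2.16-fold higher in TOs (log2 fold change 1.11, SE 0.23, 95% interval 0.57 to 1.65, adjusted p = 0.00845, edgeR quasi-likelihood test with Benjamini-Hochberg adjustment over 12439 genes). Sox9 was the 1 factor of 7 that passed the call rule (adjusted p under 0.01 and a log2 fold change beyond 1 in either direction), against 20.5% of all genes compared, and 6.55% of all genes passed it in the direction of TOs. With an adjusted p under 0.05 and no fold limit, Sox9 and Gata4 were the 2 factors that passed, against 38.7% of genes. The call stood near the limit. It was lost with DESeq2 size factors (adjusted p = 0.0105, edgeR), and without TO replicate 1 (adjusted p = 0.0199), TO replicate 2 (0.067) or testis replicate 1 (0.0256), while the log2 fold change stayed between 0.87 and 1.37 over the 4 fits that left out 1 library (edgeR).

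Sox8, which can stand in for Sox9 in part, did not follow it. Its level was 66.5 and 79.5 CPM in TOs and 52.1 and 79.3 CPM in testes, so the groups overlapped (log2 fold change 0.29, 95% interval -0.26 to 0.85, adjusted p = 0.367, edgeR). The interval leaves room for a TO level from somewhat lower to nearly as much higher as that of Sox9.

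Wt1 was present in the Sertoli-like cells of every library. It stood at 484 and 529 CPM in TOs and at 405 and 484 CPM in testes, and TO replicate 1 lay only just above testis replicate 2. The fit gave a log2 fold change of 0.30 (95% interval -0.14 to 0.74, adjusted p = 0.248, edgeR), which passed no threshold.

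**Figure D1:**
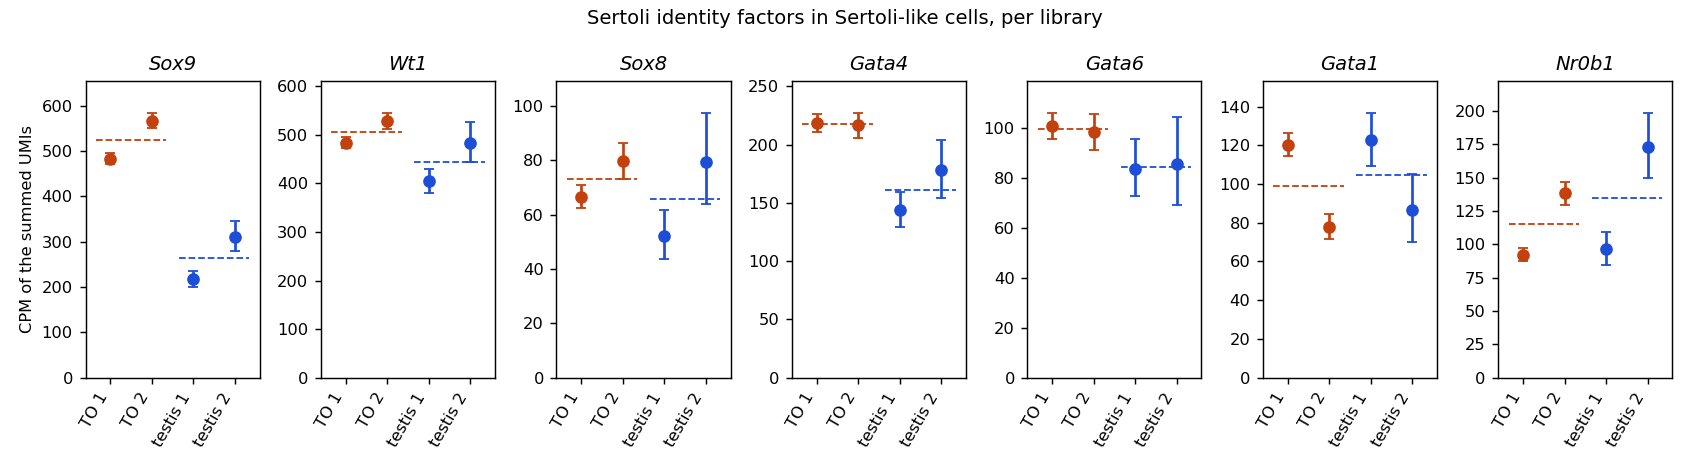
CPM of the summed UMIs of each factor in Sertoli-like cells (y axis, from 0, own scale for each gene) for the 2 TO libraries and 2 testis libraries. Bars are 95% Poisson intervals of the counts, which cover counting error only, and dashed lines are group means. The Sox9 points of TOs (483 and 567) lie above those of testes (217 and 311), while the Gata1 and Nr0b1 points overlap.

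The GATA factors of the gonad were also detected in every library. Gata4 stood at 218 and 216 CPM in TOs and 143 and 178 CPM in testes, without overlap, at a log2 fold change of 0.55 (SE 0.17, 95% interval 0.14 to 0.96). Its adjusted p of 0.0422 (edgeR) missed the call rule, as did its fold. Gata6 stood at 101 and 98.4 CPM in TOs and at 83.6 and 85.4 CPM in testes (log2 fold change 0.34, 95% interval -0.03 to 0.71, adjusted p = 0.131, edgeR). Sox9, Wt1, Gata4 and Gata6 were thus the 4 of 7 factors with both TO libraries above both testis libraries, which was true of 33.4% of all genes compared.

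Gata1, the factor of the postnatal Sertoli cell, was present in TOs at levels that overlapped those of testes. It stood at 120 and 78 CPM in TOs (1688 and 576 UMIs) and at 122 and 86.3 CPM in testes (315 and 98 UMIs). The groups overlapped and the replicates of 1 group differed more than the groups did, with means of 99.2 ± 29.9 and 104 ± 25.6 CPM (SD, n = 2 each). The fit gave a log2 fold change of 0.00 (95% interval -0.61 to 0.61, adjusted p = 1.00, edgeR), so that differences within that interval were not detectable with 2 libraries a group. Nr0b1 overlapped in the same way, at 92.3 and 138 CPM in TOs and 96.4 and 173 CPM in testes (log2 fold change -0.08, 95% interval -0.83 to 0.66, adjusted p = 0.863, edgeR).

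**Figure D2:**
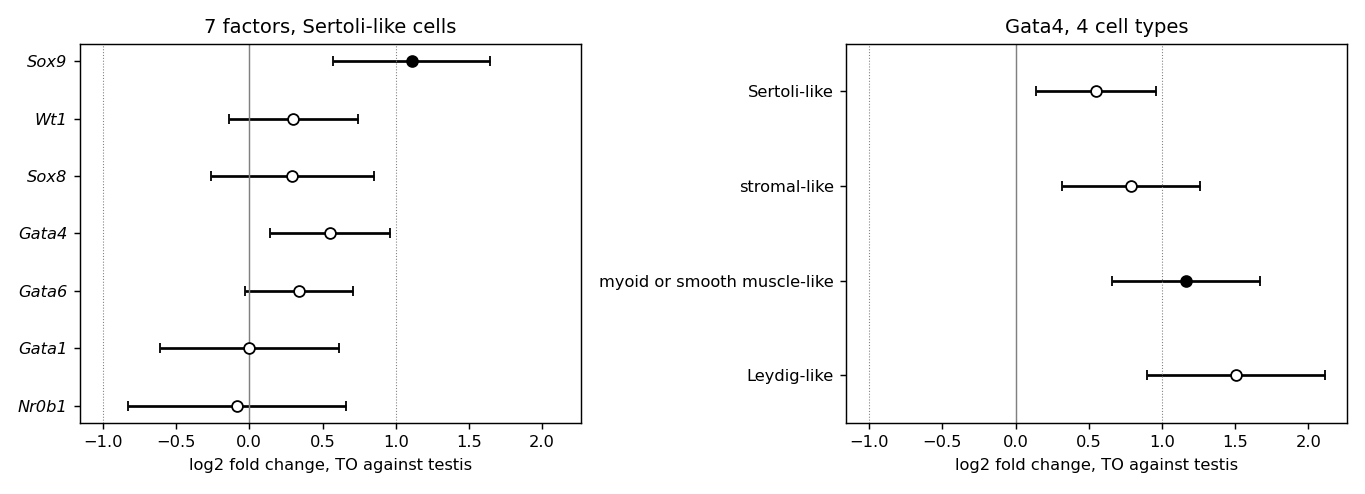
Log2 fold change of TOs against testes (x axis) with 95% intervals from edgeR, for the 7 factors in Sertoli-like cells (left) and for Gata4 in 4 cell types (right). Filled points passed the call rule, open points did not, and dotted lines mark a log2 fold change of 1 in either direction. Sox9 in Sertoli-like cells (1.11) and Gata4 in myoid or smooth muscle-like cells (1.16) are the filled points.

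The share of Sertoli-like cells with a UMI of each factor was compared after thinning every cell to 1500 UMIs, because median depths differed (10065 and 11354 UMIs per Sertoli-like cell in TOs, 6129 and 9044 in testes). Sox9 was found in 48% and 51.4% of TO cells and in 23% and 32.4% of testis cells, and unthinned in 89.7% and 89.5% against 55.2% and 69.7%. Wt1 was found in 47.2% and 51% of TO cells and in 39.9% and 45.1% of testis cells, and unthinned in 92.4% and 90.4% against 71% and 80.3%. Neither pair overlapped between groups, and the exact two-sided permutation test over libraries gave p = 0.333 for both, the smallest value that 2 against 2 libraries allow. At 3000 UMIs Sox9 stayed apart (means of 76.0% and 51.5%), but Wt1 overlapped (73.5% and 73.3%, p = 1.00, exact permutation test). At 1500 UMIs Gata4 (28.6% and 25.2% against 14.4% and 24.6%) and Gata6 (13.9% and 14.2% against 9.44% and 12%) did not overlap either, whereas Sox8, Gata1 and Nr0b1 did. At 3000 UMIs this held for Gata4, Gata1 and Nr0b1 but turned for Gata6, which overlapped (means of 24.1% and 23.7%), and for Sox8, which did not (19.1% and 14.8%). These shares were computed for the 7 factors only, so how many of all genes would not overlap is not known. The lack of overlap is therefore not read as particular to the factors. At 1500 UMIs Gata1 was found in 16.2% and 12.3% of TO cells and in 15% and 9.15% of testis cells, and unthinned in 58.1% and 49.9% against 37.6% and 39.4%. In macrophage-like cells, which should lack these factors, no share passed 3.83% (median depths differ between types, and thinning was to the same 1500 UMIs). Cells with a UMI of none of the 7 factors made up 11% and 11.7% of TO Sertoli-like cells and 32% and 23.2% of testis ones at that depth. At 3000 UMIs, where shallower cells were left out, they made up 2.11% and 0.645% of TO cells and 4.55% and 8.26% of testis cells. The depth of thinning and the cells kept both differ between these settings, so the change in the gap cannot be credited to either.

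The levels also differed among the clusters that made up the Sertoli-like class, and TO and testis cells were drawn from different clusters. Cluster 8, led by Qpct, Cck and Slc52a3, held 64% and 69.5% of the TO Sertoli-like cells, and cluster 17, led by Wfdc18, Gstm6 and Myoz2, held 26.2% and 25.9%. Cluster 23, led by Mageb18, Rhox5 and Defb45, held 49.6% and 73.2% of the testis ones. Sox9 also differed in level between these dominant clusters. Sox9 stood at 477 and 585 CPM in TO cells of cluster 8 and at 539 and 505 CPM in those of cluster 17, against 259 and 342 CPM in testis cells of cluster 23. Wt1 in contrast stood at 509 and 563 CPM in TO cells of cluster 8 and at 473 and 508 CPM in testis cells of cluster 23, and was lower in TO cells of cluster 17, at 359 and 306 CPM. Gata1 showed the same order within TOs, with 129 and 81.7 CPM in cluster 8 and 95.6 and 56.1 CPM in cluster 17.

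Some testis cells of the class held almost none of the factors. The 80 cells of testis replicate 1 in cluster 17 had 2 Sox9 UMIs, 8 Wt1 UMIs and 3 Gata4 UMIs, and the 25 cells of testis replicate 2 in cluster 8 had 0 Sox9 UMIs and 3 Wt1 UMIs. Malat1 was at 346 and 113 CPM in these cells, and at 354 CPM in cluster 30, whose 48 cells were all of testis replicate 1. With only cells that carried at least 3 of the naming markers, or without clusters 26 and 30, which were shallow or of 1 library, the Sox9 call held (both alternatives were chosen after seeing the data). The first still kept 71.25% of the 80 cells and 76% of the 25 cells, and the second kept all of them. Neither therefore shows whether the call holds without these factor-poor cells.

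Cluster 26 showed another balance of factors. It was a shallow cluster (median 2240.5 UMIs) with 144 and 25 TO cells and 22 and 11 testis cells. Its TO cells had Wt1 at 867 and 1172 CPM and Gata4 at 462 and 616 CPM, both higher than in any other Sertoli-like cluster of TOs, but Sox9 at 183 and 238 CPM and Nr0b1 at 14.1 and 0 CPM (5 and 0 UMIs, where 3 UMIs would be 59.6 CPM in replicate 2). Malat1 there was at 16374 and 14222 CPM. Its testis cells had Wt1 at 471 and 764 CPM and Sox9 at 75.3 and 180 CPM, from 4 and 8 Sox9 UMIs. Wt1 and Gata4 are the 2 members of the longest annotated span and Sox9 and Nr0b1 are short, and the part of this in the values was not tested.

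**Figure D3:**
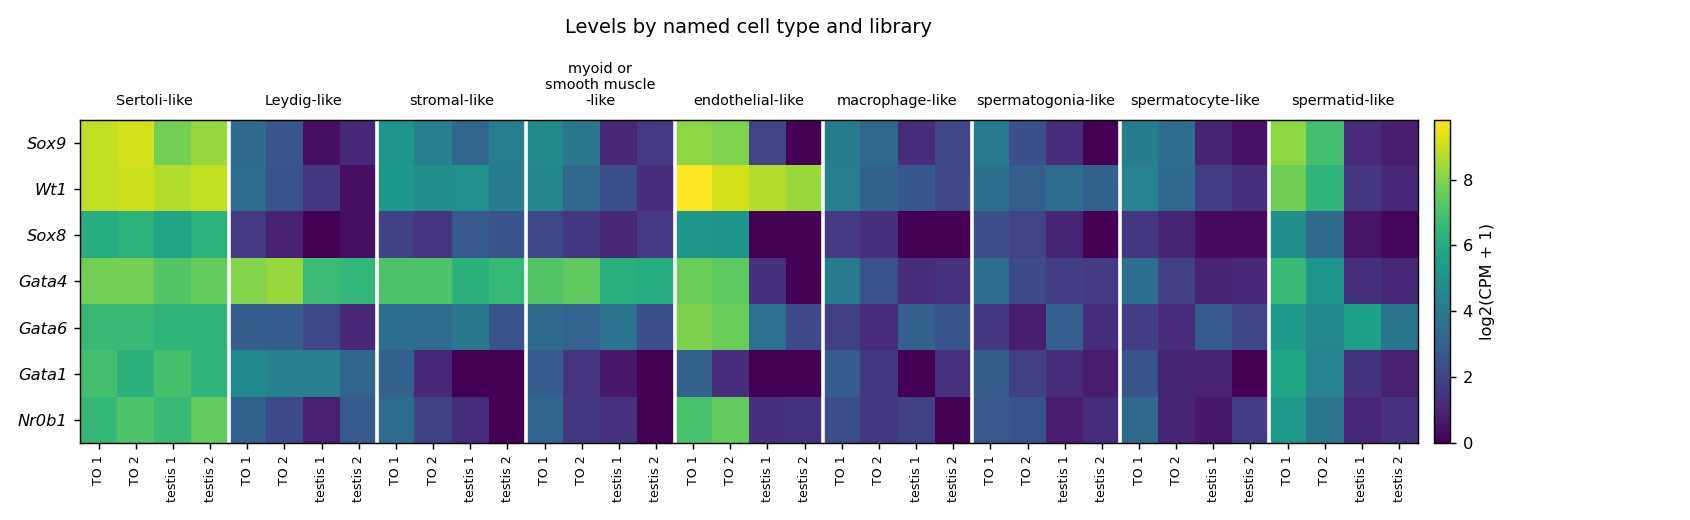
Level of each factor (rows) as log2(CPM + 1) in the summed cells of each named cell type and library (columns). In the testis columns Sox9, Sox8, Gata1 and Nr0b1 are higher in Sertoli-like cells than in the other types shown, Gata4 extends to Leydig-like, stromal-like and myoid or smooth muscle-like cells, and the TO columns of the endothelial-like and spermatid-like classes also hold Sertoli factors.

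Outside Sertoli-like cells, Gata4 was the factor with the widest pattern, and its levels in the other somatic cells of TOs were above those of testes. In myoid or smooth muscle-like cells Gata4 stood at 145 and 169 CPM in TOs and at 73.7 and 66.7 CPM in testes, without overlap, a pattern with both TO libraries higher that 38.7% of genes shared. This difference passed the call rule (log2 fold change 1.16, SE 0.22, adjusted p = 0.00394, edgeR), against 21% of 14275 genes compared there and 4.07% called in the direction of TOs. The call was lost without TO replicate 2 (adjusted p = 0.0149), testis replicate 1 (0.0182) or testis replicate 2 (0.0348, edgeR). In Leydig-like cells, the source of testosterone, Gata4 stood at 254 and 316 CPM in TOs and at 101 and 89.6 CPM in testes, again without overlap, as for 40.2% of genes in that direction. The log2 fold change of 1.5 (SE 0.26, 95% interval 0.90 to 2.11) had an adjusted p of 0.0155 (edgeR) and was not called, where 2.38% of 12204 genes were and 0.778% were higher in TOs, but DESeq2 called it (adjusted p = 7.58e-06), as did edgeR when no gene was left out of the adjustment (adjusted p = 0.00513). In stromal-like cells, Gata4 at 139 and 137 CPM in TOs and 77.6 and 93.8 CPM in testes was not called either (log2 fold change 0.79, adjusted p = 0.0276, edgeR, with 15.7% of 14321 genes called, 1.79% higher in TOs), although its groups did not overlap, as for 31.8% of genes in that direction.

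Apart from Gata4, Wt1 and Gata6 could be compared in stromal-like cells, and only Gata6 in myoid or smooth muscle-like cells. Wt1 in stromal-like cells stood at 37.1 and 27.8 CPM in TOs and 29.2 and 15.6 CPM in testes (log2 fold change 0.60, adjusted p = 0.253, edgeR). Gata6 overlapped between groups in stromal-like cells (10.7 and 9.90 against 14.2 and 4.69 CPM, log2 fold change 0.18, adjusted p = 0.829, edgeR). It also overlapped in myoid or smooth muscle-like cells (9.55 and 7.53 against 12.4 and 4.13 CPM, log2 fold change 0.00, adjusted p = 0.998, edgeR). In testes the spermatid transcript Prm1 stood at 1827 and 2097 CPM in stromal-like cells and 1763 and 2032 CPM in myoid or smooth muscle-like cells. In TOs it was at most 0.182 CPM in either type. The part of free spermatid RNA in the testis Gata6 values was not tested.

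Whether the difference in Gata4 itself differed between cell types was tested with library as a block. The Sertoli difference minus the Leydig difference was -1.12 (log2, SE 0.26, adjusted p = 0.0155, edgeR interaction test over 14456 genes), which missed the call rule that 7.32% of genes passed. Against stromal-like cells it was -0.48 (adjusted p = 0.173, edgeR, with 7.22% of genes called). For Gata6 against stromal-like cells the difference was -0.10 (adjusted p = 0.908, edgeR).

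Gata1 was also found in Leydig-like cells. Its level there was 23.2 and 18.5 CPM in TOs (427 and 345 UMIs) and 17.4 and 8.17 CPM in testes (62 and 28 UMIs), and the groups did not overlap (log2 fold change 0.64, adjusted p = 0.335, edgeR). Sertoli-like cells of TOs held 0.249 and 0.138 Gata1 UMIs per Sox9 UMI. For Gata1 in Leydig-like cells the ratio was 2.47 and 3.63 in TOs, and in testes 62 and 28 Gata1 UMIs stood beside 1 and 4 Sox9 UMIs. In stromal-like and in myoid or smooth muscle-like cells of TOs the ratio was 0.203 and 0.064, and 0.248 and 0.133. The part of free RNA in these counts was not tested. After thinning to 1500 UMIs, Gata1 was found in 4.15% and 2.12% of TO Leydig-like cells and 2.84% and 1.74% of testis ones, against 0.383%, 0.433%, 0% and 0.68% of macrophage-like cells of the same 4 libraries (0 of 232 cells allows a share of up to 1.29%).

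Gata6 had a germ cell pattern in testes that the other factors lacked. In the spermatid-like cells of testes it stood at 45.5 and 13.1 CPM (1193 and 414 UMIs), where each of the other 6 factors stood between 0.095 and 1.91 CPM. The signal was highest in cluster 7, led by Fam24b, Plac8l1 and 4930558C23Rik, with 798 and 185 UMIs (63.1 and 37.3 CPM, from 1065 and 509 cells). The TO spermatid-like cells, only 171 and 93 in number, held Gata6 at 37.3 and 23.0 CPM beside Sox9 at 279 and 117 CPM, and Gata6 per Sox9 UMI was 0.134 and 0.197 there, against 37.3 and 16.6 in the testis cells. No difference between TOs and testes is drawn from this class. Testis replicate 1 exceeded replicate 2 by more than 3 times over the whole class, and by less within cluster 7. The antisense neighbour 1010001N08Rik overlaps Gata6, and its part in these counts was not tested.

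Macrophage-like, spermatogonia-like and spermatocyte-like cells held each of the 7 factors at no more than 19.7 CPM, and none of the factors could be compared there. In those types, and for most factors in the somatic types, the gene was either under the filter on low counts or left out because other cells of the same condition held it at 5 times the level or more.

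Wt1 was also found outside the Sertoli-like class, at a low level on average. Over all cells outside it, Wt1 CPM was 6.34% and 3.94% of the Sertoli-like level in TOs and 2.45% and 1.34% in testes. Those cells are many, so their share of the UMIs was larger. Of all Wt1 UMIs, 18.8% and 25.6% lay outside the class in TOs and 28.7% and 35% in testes. For Sox9 UMIs these shares were 17.0% and 19.0% in TOs and 9.55% and 15.8% in testes. Macrophage-like cells, which should lack Wt1, held it at 17.2 CPM in TO replicate 1 and 7.17 CPM in TO replicate 2. The level of all TO cells outside the class was 30.7 and 20.9 CPM. For testis replicates, macrophage-like cells had 5.56 and 3.23 CPM (4 and 2 UMIs), beside 9.92 and 6.47 CPM outside the class. The part of free RNA in the Wt1 and Sox9 shares was not tested. In the spermatid-like clusters 4, 15 and 16, Wt1 was at 25% or more of the Sertoli-like level in both TO libraries. These clusters held only 6, 6 and 1 cells of TO replicate 2. A single cluster of TO cells outside the class reached that level with at least 10 cells in each TO library. This was the cluster named endothelial-like from the testis cells in it. Its 64 and 81 TO cells held Wt1 at 898 and 572 CPM, which is 185% and 108% of the Sertoli-like level of the same libraries, and its 133 and 88 testis cells held Wt1 at 406 and 323 CPM.

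The TO and testis cells in this cluster were not the same kind of cell by their markers, so no TO against testis difference is drawn from it. When libraries were clustered without Harmony, the step that aligns libraries, 140 of its TO cells fell in a cluster named rete testis-like (141 cells, all of TOs) and the 221 testis cells a separate cluster named endothelial-like. The rete testis is the epithelial network that drains the tubules. The 133 and 88 testis cells carried Pecam1 (307 and 270 CPM), Cdh5 (478 and 501 CPM) among 6 of 6 endothelial naming markers detected, and Wt1 was found in 65.4% and 72.7% of them. These testis cells had 2 and 0 Sox9 UMIs, 1 and 0 Gata4 UMIs, 0 Sox8 UMIs and 1 and 0 Cldn11 UMIs. Wt1, by contrast, had 267 and 193 UMIs in the same cells.

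The rete testis-like cells of TOs carried 6 of the 7 factors at 30.4 CPM or more and Gata1 at under 8 CPM. Pax8, a factor of epithelia that Sertoli-like cells of TOs and testes held at under 1 CPM, stood at 478 and 547 CPM in the 61 and 80 cells of the 2 TO libraries, Cdh1 at 347 and 195 CPM and Krt8 at 182 and 225 CPM. Of the other rete testis markers, Aldh1a3 stood at 35.4 and 34.2 CPM and Krt7 had 1 UMI in each library. Of the 6 endothelial markers, Pecam1 had 0 UMIs in both libraries and Cdh5, Vwf and Emcn had at most 2, but Egfl7 stood at 20.2 and 18.5 CPM and Kdr at 235 and 115 CPM, with a Kdr UMI in 52.5% and 43.8% of the cells. Wt1 stood at 951 and 579 CPM in these cells, and Sox9 at 283 and 239 CPM. Gata6 stood at 243 and 191 CPM, Gata4 at 177 and 167 CPM and Nr0b1 at 137 and 175 CPM. Gata6 was thus higher, and Sox9 lower, than in the Sertoli-like cells of the same libraries. Gata1 had only 3 and 1 UMIs there (7.59 and 1.42 CPM), where Sertoli-like cells of these libraries had 120 and 78 CPM. The Sertoli genes Cldn11 (701 and 574 CPM) and Aard (620 and 328 CPM) were present, whereas Fshr, the receptor for follicle-stimulating hormone, had 3 and 0 UMIs and Amh had 0. Gfra1, the receptor subunit for GDNF, stood at 207 and 248 CPM. As clusters were made from the other genes of these same cells, these levels are a description and no test was made.

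**Figure D4:**
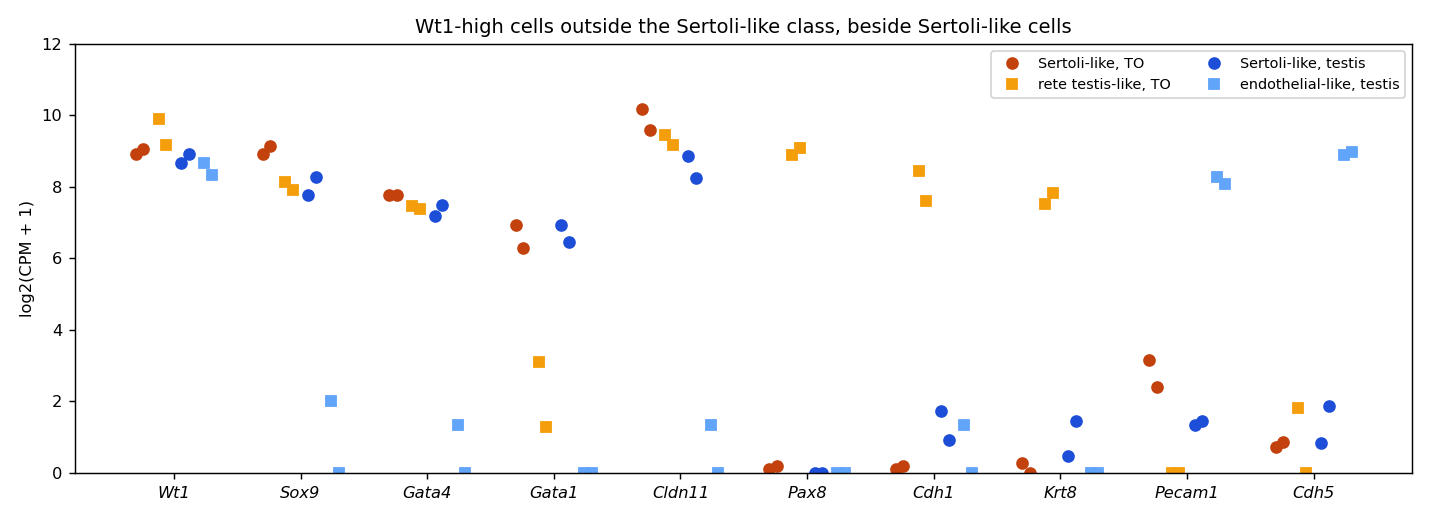
Levels (log2(CPM + 1), y axis) of 10 genes in rete testis-like cells of TOs and endothelial-like cells of testes (squares, named in the clustering without Harmony) beside Sertoli-like cells of each group (circles). Each point is 1 library. The rete testis-like cells hold Wt1, Sox9, Gata4, Cldn11 and Pax8 with little Gata1 (3 and 1 UMIs), and the endothelial-like cells hold Wt1 with Pecam1 and Cdh5 and almost no Sox9.

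The partners and targets of the factors were read in Sertoli-like cells, where 20.5% of all genes compared were called. Of 24 other transcription factors and cofactors of gonadal somatic cells, 12 were under the filter on low counts and 5 were left out because of other cells. The remaining 7 could be compared and 0 were called by edgeR (1, Sox4, had an unadjusted p under 0.05). Their median log2 fold change was -0.01 beside 0.05 over all genes compared. Nr5a1, the partner of the GATA factors, stood at 41.0 and 42.3 CPM in TOs and 36.5 and 53.7 CPM in testes (log2 fold change 0.02), and Dmrt1 at 93.1 and 90.2 against 93.3 and 107 CPM. Zfpm2, which encodes the GATA4 cofactor FOG2, was not among the genes compared, because other testis cells held it at over 5 times the Sertoli-like level. Zfpm2 stood at 191 and 212 CPM in TO Sertoli-like cells and at 4.67 and 1.76 CPM (12 and 2 UMIs) in testis ones, and in macrophage-like cells of TOs at 11.5 and 2.46 CPM. When no gene was left out, its log2 fold change was 5.85 (adjusted p = 5.53e-05, edgeR). In that fit Tcf21 (log2 fold change 4.74, adjusted p = 0.0028) and Nr2f2 (2.95, adjusted p = 0.00302, edgeR) also passed the call rule as higher. Gata2 passed it as lower (-7.58, adjusted p = 0.000847, edgeR), and Runx1 did not pass (2.91, adjusted p = 0.0177, edgeR). The count of 0 called therefore covers only the genes compared. Zfpm2, and each list gene named here that was not called, was named after its values were seen.

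Among 17 Sertoli genes known as targets of these factors or of the testis pathway, 12 were compared, 1 was called higher and 1 lower, with a median log2 fold change of -0.19. A further 3 were left out because of other cells. With no gene left out, Ptgds passed the call rule as lower in TOs (19.3 and 13.8 against 127 and 329 CPM, log2 fold change -3.63, adjusted p = 0.000748, edgeR). Cyp26b1 (-1.02, adjusted p = 0.128) and Cbln4 (7.58, adjusted p = 0.0127, edgeR) did not pass it. Gdnf, the growth factor that sustains spermatogonial stem cells, rose from 3.11 and 3.52 CPM in testes to 14.5 and 14.1 CPM in TOs (log2 fold change 2.22, adjusted p = 0.00399, edgeR). Rhox5, a homeobox gene on the X chromosome, fell from 337 and 247 CPM in testes to 6.77 and 2.85 CPM in TOs (log2 fold change -5.76, adjusted p = 0.000116, edgeR). Amh, the product of the fetal and prepubertal Sertoli cell that SOX9 and GATA4 activate, stood at 4.56 and 1.08 CPM in TOs and 21.0 and 7.05 CPM in testes and was not called (log2 fold change -2.25, adjusted p = 0.0433, edgeR). The list holds 6 of the markers used to name the cells.

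Ovarian somatic genes, which testis factors keep down, were called in both directions, lower for Lef1 only. Of 9 such genes, 5 were compared, 2 were called higher and 1 lower, and their median log2 fold change was 0.79. Wnt4 was called higher in TOs (99.7 and 74.0 CPM against 1.56 and 0 CPM, adjusted p = 0.000155, edgeR), as was Fst, which encodes the activin inhibitor follistatin (36.0 and 46.3 against 4.67 and 3.52 CPM, adjusted p = 0.00051, edgeR). Lef1 was called lower (1.07 and 0.406 against 9.33 and 5.28 CPM, adjusted p = 0.00675, edgeR). It was also among the leading genes of a spermatid-like cluster when cells were clustered at a higher resolution. The part of free germ cell RNA in its testis level was not tested. Foxl2, the defining ovarian factor, was left out of the comparison, at 3.92 and 2.30 CPM in TOs and 0 in testes.

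Of 13 maturation genes, 9 were compared, 1 was called higher and 1 lower, with a median log2 fold change of 0.06. Cldn11, a tight junction gene and naming marker, was called higher (1150 and 772 against 465 and 306 CPM, log2 fold change 1.40, adjusted p = 0.0082, edgeR), and Rhox5, also in the target list, was called lower. Of those not called, Thra (log2 fold change 1.40, adjusted p = 0.0106, edgeR) and Cdkn1b (-0.99, adjusted p = 0.0261, edgeR) stood nearest to the call rule.

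The genes whose levels followed each factor most closely were taken over 36 sums (9 named types in 4 libraries), among 11127 genes. The sums share libraries and cell types, so Pearson's r is given as a description. Sox9 was followed by Cldn11 (0.951), its relative Sox8 (0.946) and Plppr4 (0.935). Wt1 was followed by its neighbour Wt1os (0.949), Rassf10 (0.935) and Slc52a3 (0.933). Gata4 was followed by Mmd2 (0.972), Smarca1 (0.968) and Cpe (0.96), and Gata1 by Defb19 (0.949), Serpina5 (0.938) and Gm2044 (0.929). Among the factors themselves, r with Sox9 was 0.946 for Sox8, 0.871 for Nr0b1 and 0.642 for Gata4, and Wt1 and Gata4 were the least alike of the pairs with Wt1 (0.356).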

How the data were processed

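The study measured single-cell transcriptomes of mouse TOs and testes. The values deposited were raw UMI counts, which the authors made with Cell Ranger 7.1.0 on mm10, per the labels. Counting of intronic reads and strand are not given in the sources used here.

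Doublets were removed with Scrublet in scanpy 1.11.5 (0.8% per 1000 barcodes, 1119 to 1715 barcodes a library), and cells outside 1000 to 5000 genes, above 20000 UMIs or above 10% mitochondrial reads were dropped. Counts were scaled to 10000 per cell, 2000 variable genes without the 7 factors and 30 components were used, libraries were joined with a Harmony step written for these data, and Leiden clusters (resolution 1) were named from markers. A name needed 3 markers, each in 10% of a cluster's cells. Rebuilt names can differ from those of the study.

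UMIs were summed per library and cell type and tested with edgeR 4.0.16 under R 4.3.3 (quasi-likelihood test, TMM, filterByExpr, Benjamini-Hochberg). Genes at 5 times the CPM or more in the other cells of either condition were left out. Total counts of Sertoli-like cells were 1135447 to 14023323 UMIs a library. The procedure was tested on simulated data, where 73% of 200 genes changed 4-fold were called among 14228 genes of the Sertoli sums. The simulation used a single spread for all genes, left no gene out and held no smaller change. The share called at the folds seen for the factors was therefore not measured. The members, lists and tests were chosen with earlier results of these data known. Named genes were the 7 factors, called genes of the lists (at most 6 per list and direction) and the 3 genes most correlated with Sox9, Wt1, Gata4 and Gata1. DESeq2 1.42.0, other filters, thinning, clustering settings and leaving out each library were alternatives. A withheld item is not reported here. Samples were mapped by title. Poisson intervals cover counting error only, and intervals of fold changes come from the edgeR fit and hold the spread between libraries.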

Additional observations from a re-analysis of the deposited data

How the results depend on the processing

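For Sertoli-like cells, 1 factor was called. The count was 0 with DESeq2 size factors, with genes left out from 2 times the level of other cells, with no doublet removal and with sums thinned to the smallest library, and 2 at an adjusted p under 0.05 with no fold limit, where Gata4 (log2 fold change 0.55) joined Sox9. Under the first 4 settings Sox9 had log2 fold changes of 1.09, 1.11, 1.14 and 0.89 and missed the adjusted p. Leaving out 1 library gave 0 to 1 factors called, 0.87 to 1.37 for Sox9, -0.013 to 0.58 for Sox8, -0.31 to 0.30 for Gata1 and -0.47 to 0.35 for Nr0b1. All genes called numbered 2548, against 759 with genes left out from 2 times, 4815 with no fold limit, 1376 when thinned and 1403 to 3008 without 1 library.

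The sign of Gata1, at 0.00, turned to -0.014 with DESeq2 size factors, -0.0080 with DESeq2, -0.041 with genes left out before normalization, -0.067 without Harmony, -0.085 with each cell named by its own score, -0.18 when thinned, -0.017 with at least 3 markers and -0.018 without low-depth and 1-library clusters, the last pair chosen after seeing the data. Nr0b1 turned to 0.074 with genes of any count, and its share of cells to -1.02 percentage points at 3000 UMIs, where the Wt1 difference fell from 6.59 to 0.186 points and that of Gata6 from 3.37 to 0.371. The causes were not tested.

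In Leydig-like cells no factor was called by edgeR, with Gata4 the 1 compared factor at an unadjusted p under 0.05, and 1 with DESeq2 or with no gene left out. Genes called there numbered 291, against 175 with DESeq2 size factors, 0 with genes of any count, 981 with DESeq2, 2235 with no gene left out, 44 with the replicate block and 0 to 237 without 1 library. In myoid or smooth muscle-like cells 1 factor was called, 2 with no gene left out and 0 to 1 without 1 library, where genes called were 1730 to 2856 of 2999. Gata6 there turned from 0.00 to 0.14 with genes of any count and 0.089 with the replicate block (-0.58 to 1.05 without 1 library). In stromal-like cells 2250 genes were called, 3962 with genes of any count and 935 to 2331 without 1 library, and Gata6 ran from -0.43 to 1.27. The Gata6 difference between Sertoli-like and stromal-like cells turned to 0.11 with DESeq2 size factors.

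Replicate numbers marked no shared animal or batch in the labels. Deviations of same-numbered Sertoli sums had r = 0.133 over 2 pairs, and the replicate block called 3373 genes in Sertoli-like cells. Testis replicate 2 rested on 142 Sertoli-like cells.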

Other observations

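A cluster of 119 cells, all from testis replicate 2 and left unnamed, was led by Gm9112, Gm3880, Rhox5 and Tsx. It held Nr0b1 at 122 CPM (32 UMIs), Wt1 at 83.9 CPM (22 UMIs) and Sox9 at 26.7 CPM (7 UMIs), with no Gata4 UMI. Malat1 stood at 183 CPM there.

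Among TO cells placed in the spermatid-like class, 39 and 6 fell in cluster 4, a cluster led by Prm2. These TO cells held Sox9 at 513 and 773 CPM, Wt1 at 383 and 623 CPM, and Gata1 at 114 and 94.3 CPM. Their Cldn11 level was 1286 and 736 CPM, while Prm1 had 0 UMIs. The Sertoli factors listed for TO spermatid-like cells therefore came in part from cells without that spermatid marker.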
